A study of Mus musculus with 24 samples.

Results

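Arc, Homer1, Plk2 and Plk3 are activity-responsive genes with products at or near the synapse, and they were followed here by symbol as 4 of the 55177 genes to which the transcripts of the deposited tables were assigned. Their estimated counts were summed per gene and also kept per transcript, so that the short and long forms of Homer1 could be told apart. All 24 libraries were used.

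The cells were primary neurons from the cortex of E16.5 mouse embryos, and the labels' protocol counts the cortex of each embryo as a biological replicate. All cultures were silenced overnight with tetrodotoxin, which blocks sodium channels, and D-AP5, which blocks NMDA receptors. Cultures called depolarized then received 50 mM KCl for 30 min, and those called resting did not. At 7 days in vitro (DIV7) there were 2 resting and 2 depolarized libraries of neurons labelled wild type, all with 0.1% DMSO. At DIV18 the cultures carried CRISPR guide RNAs and addback constructs. These were a non-targeting guide (NT; 2 resting and 2 depolarized libraries) or a guide against Smarcc2, a subunit of the BAF chromatin remodelling complex (KO). The KO cultures carried an empty vector (3 and 3), wild-type Smarcc2 (WT; 2 and 3), Smarcc2 with the S586E substitution (3 resting) or Smarcc2 with the S586A substitution (2 depolarized). Poly(A)-enriched RNA went into the DIV7 libraries, whereas total RNA depleted of ribosomal RNA was used at DIV18. Culture age, DMSO, the guides and the kind of library therefore change together between DIV7 and DIV18, and their parts in a difference between the ages cannot be told apart.

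Depolarization opens voltage-gated calcium channels, and calcium-driven kinases then switch on a first wave of genes through factors such as CREB, SRF and MEF2 that are already in the nucleus. Most genes of that wave encode transcription factors, but some encode proteins that act at the synapse. Arc binds the endocytic machinery and promotes removal of AMPA receptors from the synaptic membrane. Homer1 is best known in a long form that multimerizes and links metabotropic glutamate receptors to Shank and to calcium-release channels, and in a short form, Homer1a, that lacks the multimerizing coiled coil and uncouples these links. Plk2 and Plk3 are polo-like kinases. Plk2 is induced by prolonged activity and weakens synapses by targeting the Rap regulator SPAR (gene Sipa1l1).

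On GRCm38 with the GENCODE M21 annotation, Arc (ENSMUSG00000022602.14) lies on the minus strand at chr15:74669083-74672570. Homer1 (ENSMUSG00000007617.18) lies on the plus strand at chr13:93299635-93405129. Plk2 (ENSMUSG00000021701.8) is on the plus strand of the same chromosome at chr13:110395046-110400844, and Plk3 (ENSMUSG00000028680.14) on the minus strand at chr4:117128655-117133963. All are protein-coding. The annotation gives 2 transcripts for Arc, 12 for Homer1, 5 for Plk2 and 3 for Plk3, and all 22 were in the tables.

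The Homer1 forms part at one splice site. The coding exon that ends at chr13:93356050-93356079 (plus strand, last 30 bases shown in lower case) is followed by the sequence shown in capitals, up to the stop codon or, for Homer1-206, Homer1-203 and Homer1-202, over the first 60 bases. These sequences are shown because the forms part here. The values given for each form are estimates over the whole transcript, and reads over this splice site were not counted.
Homer1-204: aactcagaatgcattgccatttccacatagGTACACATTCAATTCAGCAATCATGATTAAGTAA
Homer1-205: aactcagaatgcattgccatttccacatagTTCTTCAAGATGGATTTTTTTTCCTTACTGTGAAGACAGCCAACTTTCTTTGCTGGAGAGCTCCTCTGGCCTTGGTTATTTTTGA
Homer1-206: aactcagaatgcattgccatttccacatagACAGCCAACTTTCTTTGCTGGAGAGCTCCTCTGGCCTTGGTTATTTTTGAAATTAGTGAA
Homer1-207: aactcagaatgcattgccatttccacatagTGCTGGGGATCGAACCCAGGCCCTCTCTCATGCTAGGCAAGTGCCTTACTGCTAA
Homer1-203: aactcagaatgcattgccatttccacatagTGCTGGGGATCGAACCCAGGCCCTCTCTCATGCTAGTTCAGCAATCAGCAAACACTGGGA
Homer1-202: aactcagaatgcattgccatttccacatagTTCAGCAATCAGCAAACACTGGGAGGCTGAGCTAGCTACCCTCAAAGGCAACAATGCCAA
These stretches are partly shared. Homer1-207 and full-length Homer1-203 splice to the same base and have chr13:93386345-93386380 in common, so a read over that junction alone does not tell them apart. Homer1-205 runs through the bases at which Homer1-206 begins, and Homer1-203 goes on to those at which Homer1-202 begins.

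In Homer1-204 the reading frame runs straight on into the adjoining bases and stops after 34 of them, the last 3 being the stop codon TAA. The block it runs into extends over chr13:93356080-93360462, which makes Homer1-204 the longest of the Homer1 transcripts (5713 bases, with 558 coding bases). This is the structure of Homer1a. Homer1-205 and Homer1-206 splice to a block ending at the same base, chr13:93366243-93367134 and chr13:93366278-93367134, and have 609 and 699 coding bases. Homer1-207 splices further on, to chr13:93386345-93386744, and has 579 coding bases. Homer1-202, with 1110 coding bases, Homer1-203, with 1098, and Homer1-201, with 1062, run on through the downstream coding exons and are the full-length forms. Homer1-204 to Homer1-207 are called truncated below, because their coding sequence ends before those exons.

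The RefSeq promoter table (GRCm38.p6) held entries for 3 of the 4 genes, Homer1, Plk2 and Plk3. The 250 bases before a start site are given below for Homer1 and Plk2, which rose at DIV7, and for Plk3, which did not. Arc, which also rose, had no entry. Capitals mark TGACG, the core of the cyclic-AMP response element, searched on both strands, or its full palindrome TGACGTCA, which contains TGACG once on each strand.
Homer1, chr13:93303507-93303756, plus strand: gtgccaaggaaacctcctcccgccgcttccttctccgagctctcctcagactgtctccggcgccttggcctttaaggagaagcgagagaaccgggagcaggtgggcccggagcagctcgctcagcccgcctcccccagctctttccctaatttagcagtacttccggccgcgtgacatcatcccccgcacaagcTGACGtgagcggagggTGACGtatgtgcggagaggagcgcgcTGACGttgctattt
Plk2, chr13:110394794-110395043, plus strand: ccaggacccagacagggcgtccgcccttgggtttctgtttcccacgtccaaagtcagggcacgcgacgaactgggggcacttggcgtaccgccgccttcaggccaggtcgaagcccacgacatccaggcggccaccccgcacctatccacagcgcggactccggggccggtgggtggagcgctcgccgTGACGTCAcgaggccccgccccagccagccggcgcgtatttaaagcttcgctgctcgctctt
Plk3, chr4:117133964-117134213, minus strand: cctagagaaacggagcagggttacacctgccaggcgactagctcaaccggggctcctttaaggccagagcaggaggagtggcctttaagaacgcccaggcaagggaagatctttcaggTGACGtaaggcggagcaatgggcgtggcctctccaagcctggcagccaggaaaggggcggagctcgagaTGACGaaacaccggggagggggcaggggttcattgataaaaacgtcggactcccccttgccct

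The Homer1 window ends at the base before the start of Homer1-207, a form that changed little, and Homer1-204 and Homer1-205 start downstream of it at chr13 positions 93304495 and 93305184. It held TGACG 3 times, beginning 56, 40 and 14 bases before that start. Of the 32851 promoters of the table, 17.8% held it at least once in a window of this length, 3.9% at least 2 times and 0.688% at least 3 times. The Plk2 window held TGACGTCA beginning 62 bases before its start, as did 1.55% of all promoters at some position. The Plk3 window held TGACG at 132 and 63 bases before its start. TGANTCA, the AP-1 element (6.75% of promoters), GCGGGGGCG, bound by Egr factors (2.57%), and the CArG box of SRF (1.47%) were in none of these 3 windows. A second Homer1 window in the table, chr13:93307784-93308033, ends at the base before the start of Homer1-202 and held none of the motifs searched. A match describes letters in a window and not a site in use.

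A DIV7 library held 24536056 to 30135576 estimated counts and a DIV18 library 14510199 to 24024959. Levels are given as CPM, counts scaled to a common library size with TMM factors, or as the deposited TPM, which also allow for transcript length. The factors were set separately at DIV7 and DIV18, so CPM follow a gene across libraries of the same age. From DIV7 to DIV18 the resting medians of Homer1 and Plk2 rose in CPM and fell in TPM. Those of Homer1 went from 93.72 to 119.8 CPM and from 53.15 to 29.76 TPM. The resting medians of Arc rose and those of Plk3 fell on both scales. Smarcc2, the targeted gene, was at 237 to 283 CPM in NT cultures and 47.1 to 64.1 CPM in KO cultures with vector. With WT it was at 816 and 756 CPM at rest and 737 to 1089 CPM under KCl. All libraries with S586E (1164 to 1276 CPM) and S586A (1340 and 1303 CPM) lay above every WT library of their state. The 6 neuronal markers summed to 3170 to 4245 CPM in every culture. The 6 astrocyte markers summed to 489 to 584 CPM at DIV7 and 738 to 1762 CPM at DIV18. Of these, Slc1a2 was at 268 to 305 CPM at DIV7 and 635 to 1249 CPM at DIV18, while Aqp4 was at 17.85 to 23.97 CPM at DIV7 and 0.476 to 22.1 CPM at DIV18. The 7 oligodendrocyte-lineage markers summed to 57.0 to 67.6 CPM at DIV7 and 104 to 211 CPM at DIV18, with Mbp the highest of them at DIV18 and Pdgfra at up to 30.3 CPM. The 5 microglial markers stayed at or below 8.88 CPM and the 6 fibroblast or vessel markers at or below 11.8 CPM. CPM at DIV7 and DIV18 are not on a common scale, so these marker sums describe each age and do not measure a change between them. The microglial genes Tmem119 and P2ry12, the vessel gene Cldn5, the fibroblast gene Lum and, of the oligodendrocyte lineage, Sox10 were at 0 in 1 or more libraries.

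Arc had the largest fold change under KCl of the 4 members in each culture with both states. At DIV7 it was at 7.12 and 5.24 CPM in the 2 resting libraries and at 56.4 and 60.2 CPM in the 2 depolarized ones. The groups lay far apart, and the ratio of the means was 9.44. At DIV18 its resting level was already higher: 49.0 and 45.5 CPM in NT, 36.2, 39.5 and 57.1 CPM in KO with vector, 44.1 and 41.9 CPM with WT, and 35.9, 51.3 and 48.6 CPM with S586E. These 10 resting libraries spanned a narrow band around a median of 44.8 CPM, and no construct stood apart from the others.

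Under KCl at DIV18 Arc was at 212 and 102 CPM in NT, and at 172, 193 and 129 CPM in KO with vector. With WT it was at 328, 180 and 87.3 CPM, and with S586A at 192 and 189 CPM. Every depolarized DIV18 library lay above every resting one, and the depolarized libraries differed among themselves by more than 3-fold, most widely within the WT group (mean 198 ± 121 CPM, SD, n = 3). The share of all genes that separate so over the pooled DIV18 constructs was not counted. The S586A libraries sat close together inside the range of WT. On the per-length scale Arc ran from 3.22 to 4.39 TPM at rest and from 33.9 to 36.2 TPM under KCl at DIV7, and from 9.10 to 15.5 TPM and from 25.5 to 101 TPM at DIV18.

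**Figure D1:**
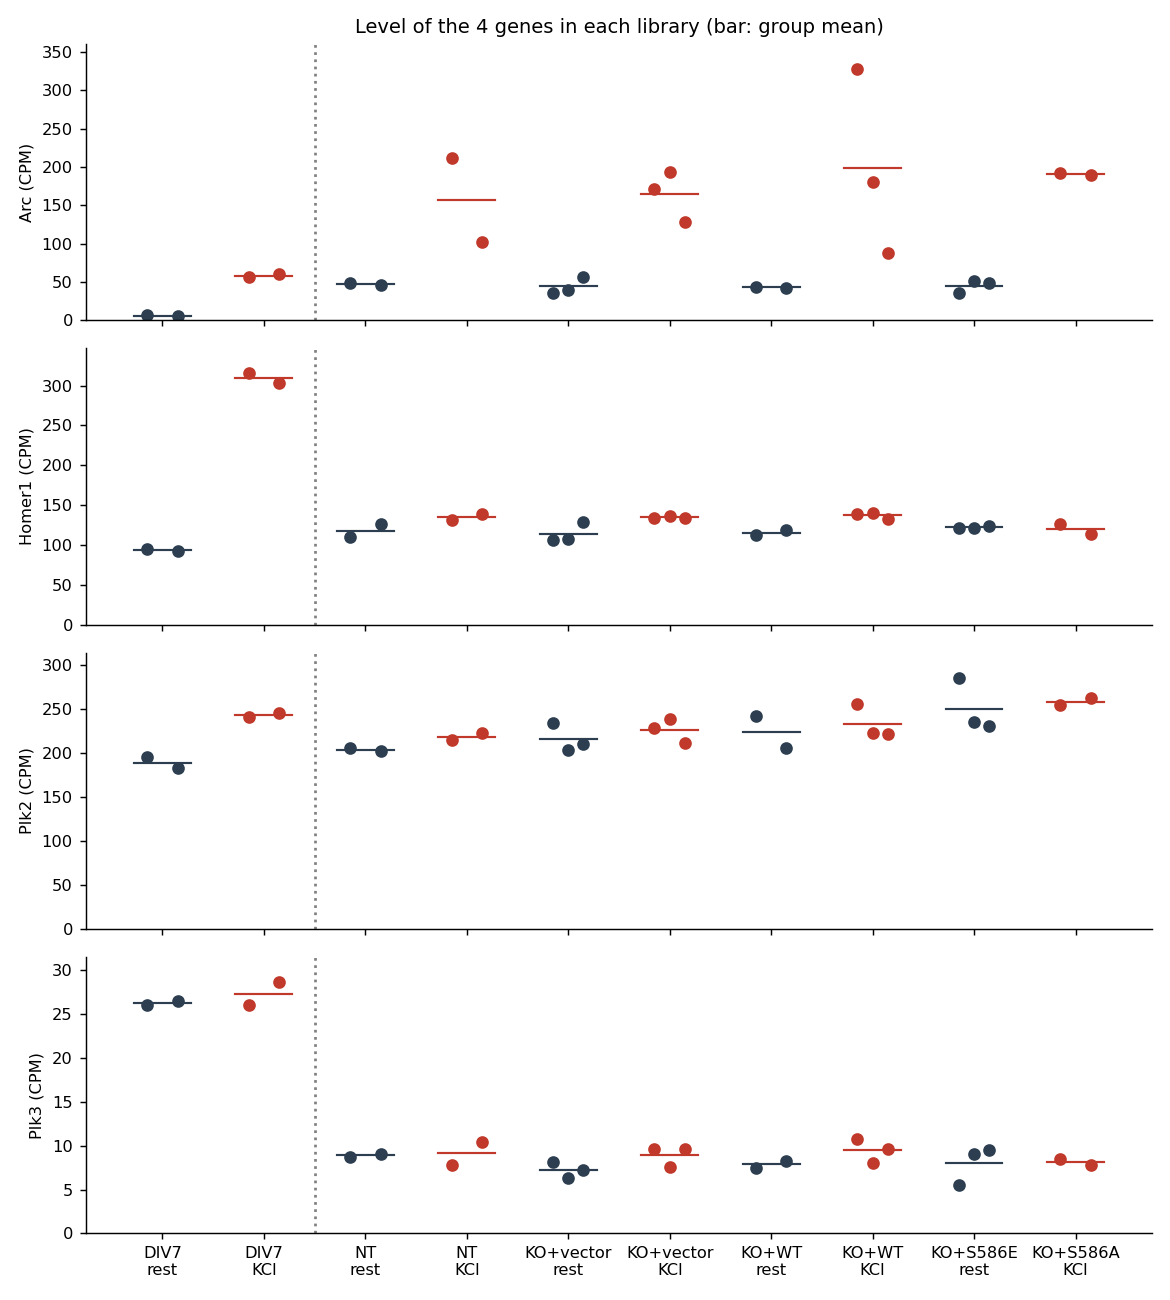
Levels of Arc, Homer1, Plk2 and Plk3 (CPM, linear axes from 0) in each of the 24 libraries, by culture and state; each point is 1 library and the horizontal bars are group means. Arc separates rest from KCl in all 4 cultures with both states, Homer1 does so widely at DIV7 (93.7 against 310 CPM) and narrowly at DIV18, and Plk3 does not separate them.

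Whether these differences exceeded the spread between libraries was tested with edgeR across all genes, with Benjamini-Hochberg adjustment over all of them. At DIV7, 3 of the 4 members were called, all higher, where 7.34% of all 19822 genes tested were called higher (9.67% lower, 17% in either direction). DESeq2 called the same 3. Arc rose by a log2 fold change of 3.23 (SE 0.126, adjusted p 2.20e-05), and it was called in all 9 alternative analyses, with values from 3.03 to 3.47.

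At DIV18 Arc was higher under KCl in the 3 cultures with both states, by log2 values of 1.73 to 2.21, and 1 of these was called. In NT cultures none of the 4 members was called (0.00955% of 20940 genes were), by edgeR or DESeq2, and Arc and Homer1 had an unadjusted p under 0.05. The Arc log2 fold change there was 1.73 (SE 0.412, 95% interval 0.87 to 2.60, unadjusted p 5.16e-04, adjusted p 0.540, edgeR), and from 1.10 to 2.16 with 1 of the 4 NT libraries left out. In KO cultures with vector 1 member was called higher, Arc (0.0621% of genes were called higher, 0.0716% in either direction), by 1.90 (SE 0.341, interval 1.18 to 2.61, adjusted p 0.0387, edgeR). The call was lost when any 1 of the 6 libraries was left out, though the fold change stayed between 1.77 and 2.12 (adjusted p 0.0561 to 0.287). In KO cultures with WT no member was called by edgeR (0.0382% of genes were higher and 0.00478% lower, 0.043% in all), while DESeq2 called Arc, and Arc and Homer1 had an unadjusted p under 0.05. Arc differed there by 2.21 (SE 0.398, interval 1.37 to 3.04, adjusted p 0.0567). This value passed in 5 of 11 alternatives (adjusted p over all of them 1.56e-79 to 0.932), among them the fit without the third depolarized WT library, the lowest of its group for Arc (2.56, adjusted p 6.44e-04). The lowest adjusted p came from the edgeR fit with no low-count filter, in which called genes went from 9 to 196.

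The 2 annotated Arc transcripts, Arc-201 and Arc-202, share their exons apart from a few end bases and differ in length by 1 base, so the split of reads between them is uncertain. Arc-201 went from 86.2 and 203 estimated counts at rest to 794 and 874 under KCl at DIV7, and Arc-202 from 0 and 43.8 to 795 and 859. Neither was called on its own (adjusted p 0.0656 and 0.116, edgeR, transcripts).

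Homer1 rose at DIV7, and its smaller differences at DIV18 were not called. At DIV7 it was at 94.7 and 92.8 CPM at rest and at 315 and 304 CPM under KCl, 3.30 times the resting mean. The replicates agreed closely, and the log2 fold change was 1.72 (SE 0.0452, adjusted p 3.53e-06, edgeR), called in all 9 alternatives (1.70 to 1.75 with 1 library left out). At DIV18 the resting libraries had 110 and 126 CPM in NT, 107, 107 and 129 CPM in KO with vector, 112 and 118 CPM with WT, and 122, 122 and 124 CPM with S586E. The depolarized ones had 131 and 139 CPM in NT, 134, 137 and 135 CPM in KO with vector, 139, 141 and 133 CPM with WT, and 126 and 114 CPM with S586A.

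Within each of NT, KO with vector and KO with WT, every depolarized library lay above every resting one, but the step was small beside that at DIV7. The log2 differences were 0.19 in NT (unadjusted p 0.0473, adjusted p 1), 0.24 in KO with vector (unadjusted p 0.00450, adjusted p 0.294) and 0.25 with WT (unadjusted p 0.00705, adjusted p 0.800, edgeR), and none was called. Arc and Homer1 were the 2 members whose states did not overlap in any of the 4 cultures. Such a separation is common with few libraries: every KCl library lay above every resting one for 28.5% of all genes at DIV7, 16.7% in NT, 8.21% in KO with vector and 11.3% with WT.

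The rise of Homer1 at DIV7 was in its truncated forms. Homer1-204 went from 535.3 and 433.1 estimated counts at rest to 4655.6 and 4107.5 under KCl. Homer1-206 went from 78.7 and 49.8 to 1694 and 1542.6, and Homer1-205 from 5.2 and 2.5 to 572.1 and 583.9. In all 3 the depolarized libraries lay far above the resting ones, and the replicates of each state were close. Homer1-204 reads straight on from the shared exon, and the other two splice to the block that ends at chr13 position 93367134.

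The other forms moved little. Homer1-207, truncated but spliced to the more distant block, went from 658.5 and 679.6 to 828.3 and 813.5 estimated counts. Homer1-202 was at 595.7 and 502.3 at rest and 616.8 and 538.9 under KCl, and Homer1-203 at 695.9 and 633.9 against 931.8 and 725.2. The states overlapped for Homer1-202, and for Homer1-203 and Homer1-207 they did not. In CPM these gaps were narrow. The highest resting and lowest depolarized values were 25.29 and 26.89 CPM for Homer1-203 and 27.11 and 28.52 CPM for Homer1-207. The share of all transcripts that separate in this way was not counted.

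Tested per transcript at DIV7, where 0.45% of 53122 transcripts were called higher (1.36% in either direction), Homer1-204, Homer1-205 and Homer1-206 were called. Homer1-204 rose by a log2 fold change of 3.13 (SE 0.0691, adjusted p 0.00691, edgeR). Homer1-206 rose by 4.60 (SE 0.170, adjusted p 0.0139). Homer1-205 rose by 7.08 (adjusted p 0.0134), a fitted value that depends on resting counts of 5.2 and 2.5. Homer1-202 differed by 0.02 (95% interval -0.23 to 0.27, adjusted p 0.937), Homer1-203 by 0.26 (adjusted p 0.312) and Homer1-207 by 0.23 (adjusted p 0.349), and Homer1-201, below 129 estimated counts in every library, by -1.86 (adjusted p 0.589). All 3 calls were lost when any 1 of the 4 libraries was left out, where at most 4 transcripts of all were called. They were also lost with the replicate number as a block (adjusted p 0.0703, 0.101 and 0.101 for Homer1-204, Homer1-205 and Homer1-206), where 1 transcript of all was called in place of 722. The Homer1-204 fold change itself stayed between 3.08 and 3.18 (adjusted p 0.0664 to 0.124).

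Per length, the truncated forms together were at 26.2 and 28.4 TPM at rest and at 136.5 and 137.2 TPM under KCl at DIV7. The full-length forms were at 27.1 and 24.4 TPM at rest and at 28.2 and 24.5 TPM under KCl. Homer1-207 made up most of the truncated TPM at rest (17.96 and 21.21 TPM) and changed little under KCl (21.23 and 22.5 TPM). Homer1-204 went from 5.97 and 5.53 TPM to 48.8 and 46.4 TPM, and Homer1-205 and Homer1-206 together exceeded it in both depolarized libraries. Truncated forms thus stood at 0.966 and 1.16 TPM per TPM of full-length Homer1 in the resting libraries, and at 4.84 and 5.61 in the depolarized ones. In share of the estimated counts of coding Homer1, truncated forms made up 47.4% and 50.6% at rest and 83.1% and 84.5% under KCl. With short forms defined instead as those with a coding sequence of at most 60% of the longest, a rule that leaves Homer1-206 among the long forms, the shares were 44.5% and 48.4% at rest and 64.9% and 66.2% under KCl. The first definition was chosen after the values were seen. Both raise the share in both depolarized libraries.

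**Figure D2:**
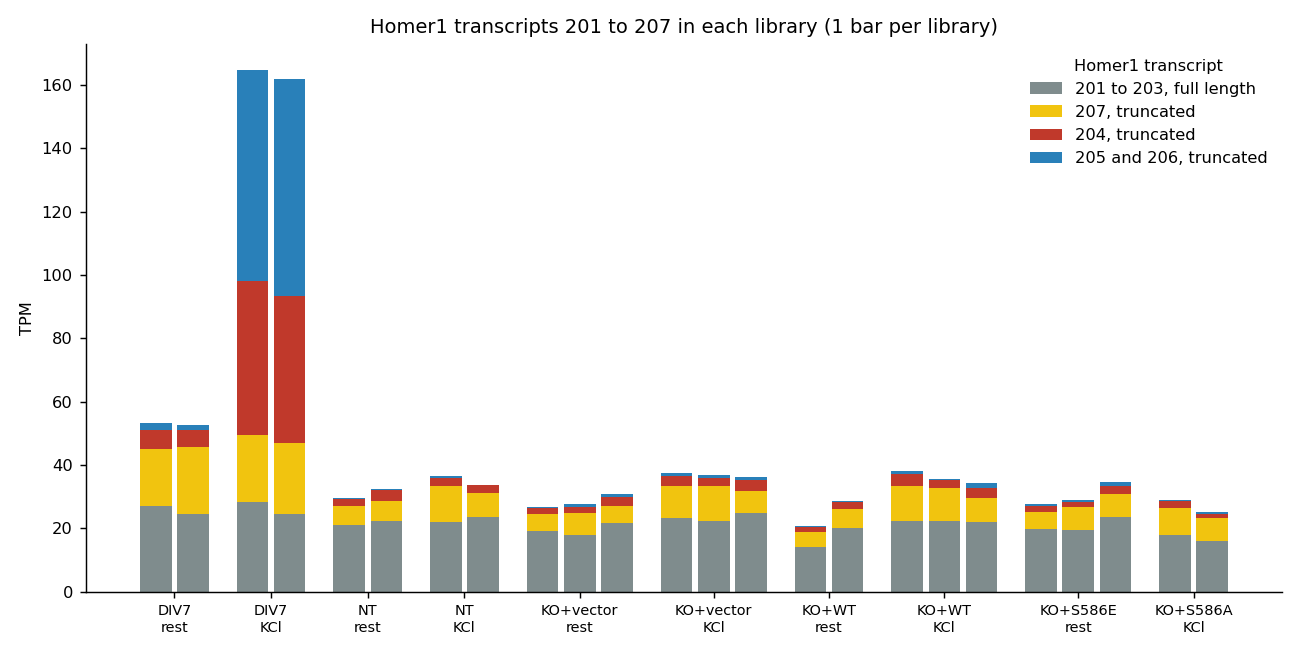
TPM of Homer1-201 to Homer1-207 in each of the 24 libraries, by culture and state; each stacked bar is 1 library, grey for the full-length forms and colours for the truncated ones. Under KCl at DIV7 the truncated forms reach 136.5 and 137.2 TPM while the full-length forms stay between 24.4 and 28.2 TPM, and at DIV18 the truncated forms lie below the full-length forms in every library.

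At DIV18 truncated Homer1 held a smaller share in both states. Homer1-204 had 257 to 492 estimated counts in the 10 resting libraries (median 310.3) and 200 to 540 in the 10 depolarized ones (median 346.8), so that the states overlapped. Homer1-205 had at most 49.9 and Homer1-206 at most 32.2 estimated counts in any DIV18 library, against 572 or more in each depolarized DIV7 library. Truncated forms stood at 0.397 to 0.552 TPM per TPM of full-length Homer1 at rest (median 0.439) and at 0.438 to 0.696 under KCl (median 0.601). Their share of the coding counts was 27.1% to 33.0% at rest and 29.1% to 38.2% under KCl. Both ranges lie below those of every DIV7 library.

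No Homer1 transcript was called at DIV18 in any of the 3 KCl comparisons, in which 0.00167% (NT), 0.015% (KO with vector) and 0.00334% (KO with WT) of 59803 transcripts were called. Homer1-204 differed by -0.06 in NT, 0.29 in KO with vector and 0.45 with WT (adjusted p 1, 0.878 and 1, edgeR). Homer1-207 differed by 0.61 in NT, 0.57 in KO with vector and 0.61 with WT, and Homer1-202 by 0.30, 0.43 and 0.34. Each of these 6 values for Homer1-207 and Homer1-202 had an unadjusted p under 0.05, the lowest being 7.64e-04 for Homer1-202 in KO with vector, and an adjusted p of 0.548 or more.

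Plk2 rose slightly at DIV7 and was not called at DIV18. At DIV7 it was at 195.5 and 182.8 CPM at rest and 241.4 and 245.6 CPM under KCl, and the states did not overlap. The log2 fold change was 0.36 (SE 0.0481, adjusted p 0.00401, edgeR), and it was called in all 9 alternatives (0.31 to 0.41, adjusted p at most 0.0209). At DIV18 resting Plk2 was at 206 and 203 CPM in NT, 234, 204 and 211 CPM in KO with vector, 243 and 206 CPM with WT, and 286, 236 and 231 CPM with S586E. Under KCl it was at 215 and 223 CPM in NT, 229, 239 and 212 CPM in KO with vector, 256.5, 223.6 and 221.5 CPM with WT, and 255 and 263 CPM with S586A. The states overlapped in KO with vector and with WT, and in NT they did not. The log2 differences were 0.10 (95% interval -0.13 to 0.33), 0.07 (-0.12 to 0.25) and 0.06 (-0.15 to 0.27) in NT, KO with vector and KO with WT, and none was called.

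The protein-coding transcript Plk2-201 held 3104.4 or more estimated counts in every library, and no other Plk2 transcript held more than 138.7. Plk2-203, a single-exon transcript annotated as a retained intron, had 36.2 and 47.0 estimated counts at rest and 66.8 and 104.3 under KCl at DIV7. At DIV18 it had 16.7 to 67.7 at rest (median 42.4) and 33.4 to 138.7 under KCl (median 77.3). It was the Plk2 transcript with the lowest unadjusted p at DIV18, higher under KCl by 1.47 in KO with vector (unadjusted p 0.00196, adjusted p 0.625) and by 1.51 with WT (unadjusted p 0.00437, adjusted p 1, edgeR), and by 0.21 in NT. None of these was called. It was singled out after its values were seen.

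Plk3, the paralogue of Plk2, did not respond measurably. At DIV7 it was at 26.0 and 26.5 CPM at rest and 26.0 and 28.6 CPM under KCl, with overlapping states and a log2 difference of 0.06 (95% interval -0.13 to 0.24, adjusted p 0.671, edgeR). At DIV18 its 10 resting libraries had 5.55 to 9.46 CPM (median 8.22) and its 10 depolarized ones 7.53 to 10.8 CPM (median 9.09). The log2 differences were 0.04 in NT, 0.30 in KO with vector and 0.27 with WT, with intervals from -0.43 to 0.51, -0.09 to 0.70 and -0.17 to 0.70. The states overlapped in all 3 cultures, and at this level a difference of the size seen for Homer1 at DIV18 could not be shown.

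On the per-length scale the members ranked differently at the 2 ages. In resting DIV7 cultures Plk2 was highest (127 and 137 TPM), then Homer1 (53.5 and 52.8 TPM), Plk3 (21.03 and 21.31 TPM) and Arc (3.22 and 4.39 TPM), and no neighbours in this order overlapped. In resting DIV18 cultures Plk2 ran from 57.7 to 80.7 TPM, Homer1 from 23.4 to 34.8 TPM, Arc from 9.10 to 15.5 TPM and Plk3 from 1.84 to 3.77 TPM, again with no overlap between neighbours. Under KCl at DIV18 Arc, at 25.5 to 101 TPM, overlapped both Homer1 (25.5 to 39.3 TPM) and Plk2 (68.8 to 92.7 TPM). Under KCl at DIV7 Homer1 (163 and 165 TPM) lay just below Plk2 (168 and 170 TPM).

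**Figure D3:**
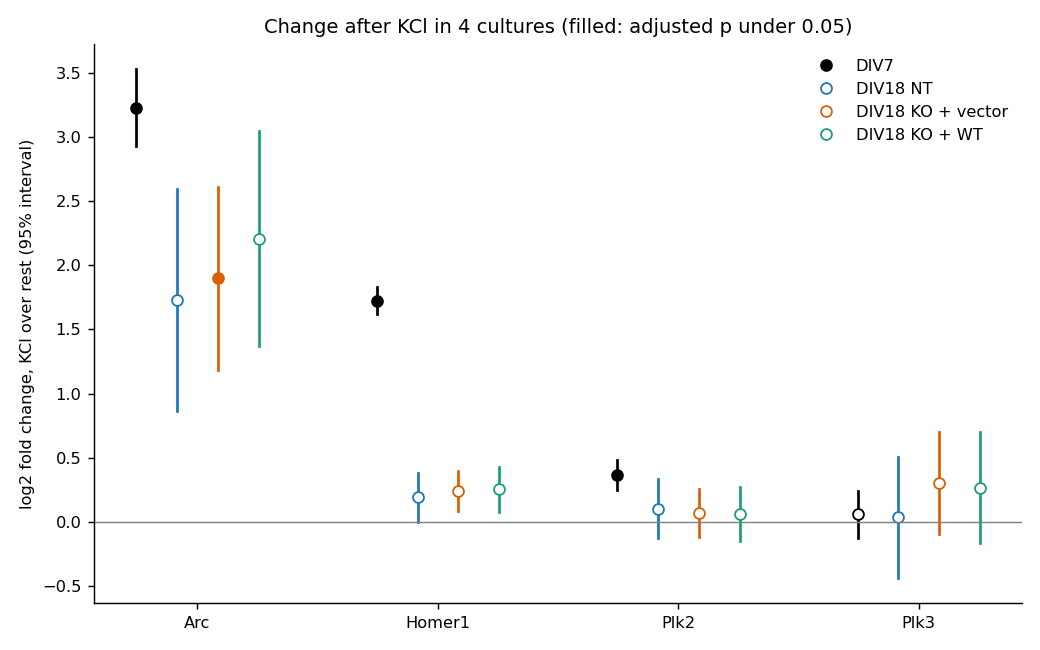
Log2 fold change of each member, KCl against rest, in the DIV7, NT, KO with vector and KO with WT cultures (edgeR); bars are 95% intervals and filled points were called at an adjusted p under 0.05. Arc lies between 1.73 and 3.23 in all 4 cultures, Homer1 at 1.72 in DIV7 and 0.19 to 0.25 elsewhere, and Plk3 intervals all include 0.

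The response at DIV7 was set against that of NT cultures at DIV18 in a joint fit of all 24 libraries, which tests the difference between the responses. Homer1 was the 1 member called (1.82% of 22459 genes were called, 0.49% with a higher and 1.33% with a lower response at DIV7). Its response was higher at DIV7 by 1.55 on the log2 scale (SE 0.121, adjusted p 1.43e-07, edgeR). It was called in all 14 alternatives, from 1.44 to 1.64 (adjusted p at most 2.37e-04). The Arc response differed by a like amount, 1.52, with a much wider interval (0.30 to 2.74, unadjusted p 0.0174, adjusted p 0.274). Plk2 differed by 0.28 (-0.03 to 0.59, adjusted p 0.510) and Plk3 by 0.04 (-0.55 to 0.63, adjusted p 1).

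Among transcripts, where 0.35% of 66828 were called, 0.159% with a higher response at DIV7, Homer1-204 was called with a response higher at DIV7 by 3.27 (SE 0.325, adjusted p 7.05e-05, edgeR). With any 1 of the 8 libraries of the comparison left out it ran from 2.89 to 3.58 and was called each time. Homer1-205 differed by 11.7 (adjusted p 0.0533), a fitted value against NT libraries with few or no counts of that form. It was called without the second resting NT library (12.7, adjusted p 0.0293). Homer1-202 differed by -0.19, Homer1-203 by 0.33 and Homer1-207 by -0.29, and these 3 were not called (adjusted p 0.724 or more). The sum of the astrocyte markers was 489 to 584 CPM at DIV7 and 1274 to 1762 CPM in NT cultures, of which Slc1a2 was 268 to 305 and 1057 to 1249 CPM. That of the 5 excitatory-neuron markers was 794 to 825 CPM at DIV7 and 1898 to 2022 CPM in NT cultures. The factors of these CPM were set separately at each age, so the sums do not measure a change between the ages. The part of these markers in the differences between the ages was not tested. In bulk RNA fewer cells of a type and less RNA per cell cannot be told apart.

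The state of Smarcc2 was compared in 8 contrasts. These were KO with vector against NT and WT against vector, each at rest, under KCl and in the size of the KCl response, S586E against WT at rest, and S586A against WT under KCl. Over the 32 tests of the 4 members none was called by edgeR or by DESeq2, and 1 had an unadjusted p under 0.05. Of all genes tested, 5.9% were called in KO with vector against NT at rest (2.13% higher, 3.77% lower) and 2.67% under KCl (0.726% higher, 1.95% lower). In WT against vector these shares were 0.0143% at rest (0.00478% higher, 0.00955% lower) and 0.00955% under KCl (0.00478% each way), and in the other 4 contrasts 0%. The log2 differences of the members ran from -0.29 to 0.31, and the lowest adjusted p was 0.461. KO with vector and WT share the vector libraries between contrasts, as S586E and S586A share those of WT. The S586E and S586A cultures also had more Smarcc2 RNA than WT, so substitution and Smarcc2 level cannot be told apart there.

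For Arc the differences ran from -0.10 to 0.31, with intervals that reached from -0.93 to 1.36, so that a change of up to about this size is within the spread of these libraries. The Arc response itself differed by 0.17 (95% interval -0.93 to 1.26) between KO with vector and NT and by 0.31 (-0.74 to 1.36) between WT and vector. Intervals were narrower for Homer1, at -0.05 (-0.22 to 0.13) for KO with vector against NT at rest. The 1 unadjusted p under 0.05 was that of Homer1 in S586A against WT under KCl, at -0.19 (-0.37 to -0.02, unadjusted p 0.0328, adjusted p 0.556, edgeR). Both S586A libraries, at 126 and 114 CPM, lay below all 3 WT libraries, at 133 to 141 CPM. Homer1 was also apart in S586E against WT at rest, at 121.5 to 124 against 112.3 to 118.2 CPM. For Plk2 the 8 differences ran from -0.03 to 0.16, the highest for S586E against WT. For Plk3 they ran from -0.29, for KO with vector against NT at rest, where the 3 vector libraries lay below both NT libraries, to 0.27. The share of all genes that separate in this way was not counted for these contrasts, so nothing is read from these separations.

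The genes that work with the members changed little under KCl, while other early-response genes rose. The lists were the binding partners and relatives of Homer (15 genes tested), the partners of Arc (19), the polo-like kinases and substrates of Plk2 (13), the calcium and MAP kinase path with its transcription factors (25), and 12 other early-response genes. At DIV7, where 7.34% of all genes rose and 9.67% fell, 3 of the 15 Homer partners rose and none fell. They were Dlgap1, a scaffold between PSD-95 and Shank (0.25, adjusted p 0.0104), Ryr2, a calcium-release channel (0.20, adjusted p 0.0275), and Agap2, also known as PIKE (0.15, adjusted p 0.0280, edgeR). Their list had a median of 0.08, against -0.0014 over all genes. Of the 19 Arc partners 2 rose, a share not far from that of all genes, the kinases Gsk3b (0.27) and Gsk3a (0.19), and none fell (list median 0.06).

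In the polo-like kinase list 3 of 13 genes rose and none fell (median 0.12). They were Plk5, a polo-like kinase (0.67), Sipa1l1, the SPAR gene (0.33), and Rapgef2, an exchange factor for Rap (0.27). In the calcium and MAP kinase path 5 of 25 rose and 5 fell (median 0.04). The largest were Srf, the serum response factor (0.57), Cacna1d, an L-type calcium channel subunit (0.54), and Elk1, a partner of SRF (-0.45). All 12 other early-response genes rose (median 5.09), led by Fosb (8.01), Fos (7.23) and Nr4a1 (5.77). The Arc fold change of 3.23 lay within their range of 0.77 to 8.01, above Egr4 (2.83), and Homer1 at 1.72 lay below all of them but Egr3 (0.77).

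At DIV18 no gene of the 4 partner and path lists was called in a KCl response, by edgeR. DESeq2 called none of these 72 genes either, and 1 of them had an unadjusted p under 0.05 in NT, 8 in KO with vector and 3 with WT (edgeR). Of the early-response genes, NT cultures had 1 called, Fosb (3.17). KO cultures with vector had 7: Npas4 (5.60), Fosb (4.11), Fos (3.80), Egr4 (2.63), Egr1 (2.34), Ier2 (2.10) and Junb (1.74). KO cultures with WT had 6, namely Npas4 (6.63), Fos (4.52), Fosb (4.10), Egr2 (4.04), Egr4 (2.43) and Egr1 (2.38). The list medians were 1.69, 2.00 and 2.18, and the Arc values of 1.73, 1.90 and 2.21 stood near them. DESeq2 called 6 early-response genes in NT, 9 in KO with vector and 9 with WT. The Homer1 values of 0.19 to 0.25 lay far below these medians.

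**Figure D4:**
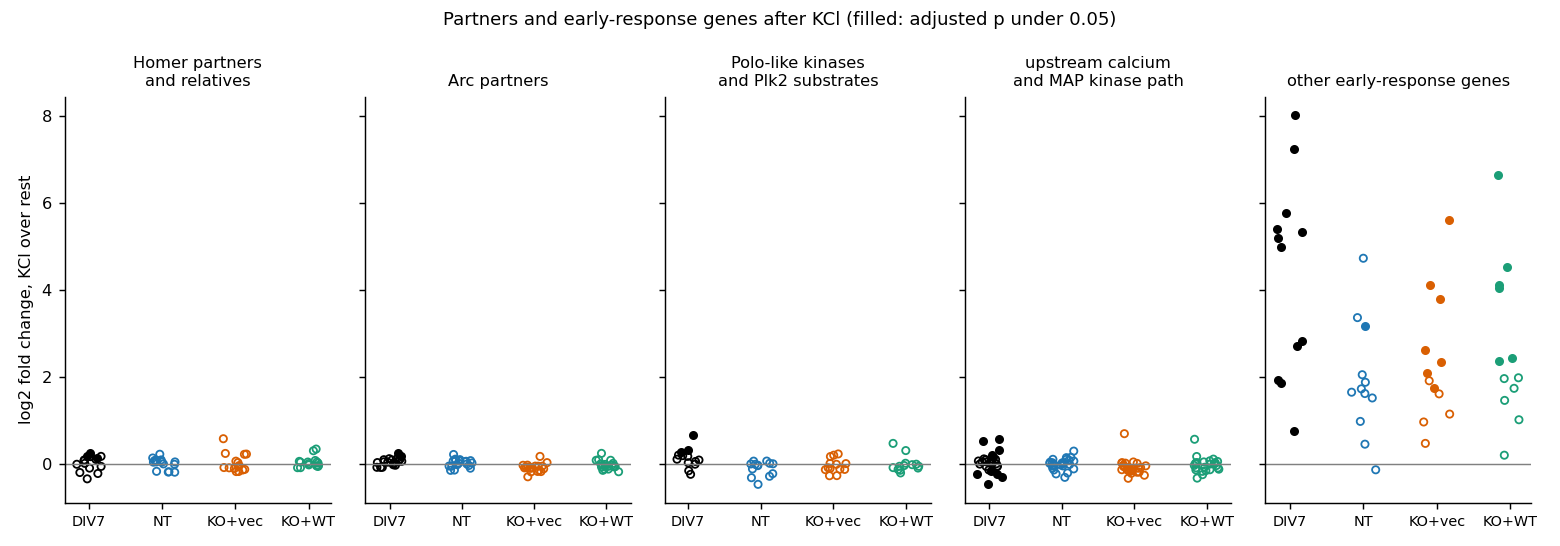
Log2 fold change of each gene of the 5 lists, KCl against rest, at DIV7 and in the NT, KO with vector and KO with WT cultures; each point is 1 gene, filled where its adjusted p was under 0.05 (edgeR). The early-response genes have medians of 5.09 at DIV7 and 1.69 to 2.18 at DIV18, and the partner and path lists centre near 0.

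The response difference between DIV7 and NT was called for 7 of the 12 early-response genes, all higher at DIV7 (list median 2.40, against 0.01 over all genes). It was called for none of the 72 partner and path genes by edgeR, of which 9 were higher and 2 lower at an unadjusted p under 0.05, and for 2 of them, Sipa1l1 and Srf, by DESeq2. The 7 called early-response values ran from 0.91 for Egr3 to 4.85 for Fosb, and the Homer1 value of 1.55 lay within that range.

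Several partner genes were called in KO with vector against NT, where no member was. In KO cultures with vector 3 of the 15 Homer partners were lower than in NT at rest, and none was higher, where 3.77% of all genes were lower and 2.13% higher. They were Shank3, the scaffold that Homer binds (-0.65), Homer2, the paralogue of Homer1 (-0.41), and Agap2 (-0.37, edgeR). The same 3 were lower under KCl, where 1.95% of all genes were lower, with values of -0.50, -0.43 and -0.50 for Shank3, Homer2 and Agap2. With 1 library left out Shank3 was called each time in both states (adjusted p at most 0.0323), but 1 or 2 of the 3 remained called at rest and 1 to 3 under KCl. Over all genes the calls fell from 1236 to 100 without the second resting NT library and from 560 to 37 without the second depolarized one. These genes were named after their values were seen. At rest Pdlim5 (-0.89), from the list of Plk2 substrates, was lower. Of the calcium and MAP kinase path, Mapk3 (-0.61), Map2k1 (-0.44), Grin1 (-0.44) and Mef2a (-0.34) were lower at rest and Grin1 (-0.38) under KCl. With 1 library left out, the Plk2 list kept a lower call at rest only without the first resting vector library. The path then had 1 to 4 genes called lower at rest. Under KCl it had 0 without either of the NT libraries. No Arc partner was called in either state by edgeR, with 5 and 3 of 19 at an unadjusted p under 0.05. The astrocyte markers summed to 899 to 1249 CPM in resting KO cultures with vector and 1363 to 1604 CPM in resting NT cultures, and to 738 to 866 and 1274 to 1762 CPM under KCl. Of the 7 oligodendrocyte-lineage markers 4 were called lower at rest (list median -2.40) and 3 under KCl (-2.18). Pdgfra was at 0.0637 to 1.01 CPM in resting KO cultures with vector and 19.7 to 30.3 CPM in resting NT cultures, while Mbp was at 124 to 129 and 89.8 to 121 CPM. Of the 5 excitatory-neuron markers 2 were called higher at rest, Tbr1 (0.84) and Slc17a6 (0.84, edgeR). The part of these markers in these differences was not tested.

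The genes most like each member were taken as the 3 with the highest Pearson correlation of log2 CPM over the 20 DIV18 libraries, among 13150 genes tested with a mean of at least 1 CPM. The points share library depth and state, and the values are descriptions. For Arc these were Ier2, Junb and Egr4, all early-response genes. The resting and depolarized libraries form separate clusters for Arc, so the correlation is given within each. Among the 10 depolarized libraries Pearson's r with Arc was 0.989 for Ier2 (Spearman's rho 0.952), 0.956 for Junb (0.830) and 0.923 for Egr4 (0.721). Without the 2 libraries farthest from the median of Arc it was 0.974, 0.875 and 0.859. Among the 10 resting libraries it was 0.598, 0.192 and 0.754. The depolarized libraries with the least Arc were therefore also those with the least Ier2, Junb and Egr4.

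**Figure D5:**
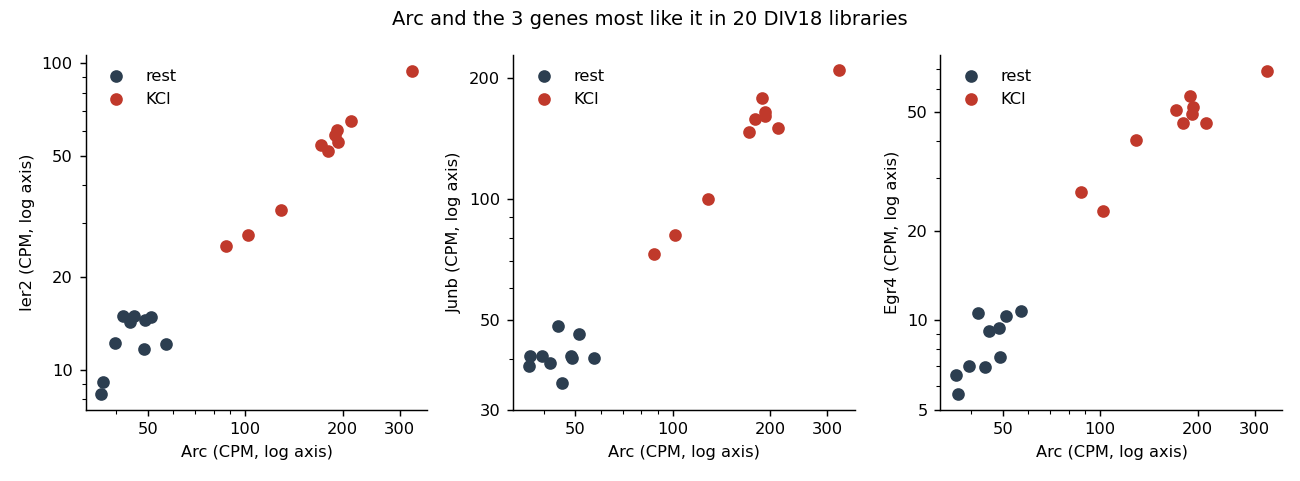
Arc against Ier2, Junb and Egr4 (CPM, both axes logarithmic) in the 20 DIV18 libraries, each point being 1 library, resting or depolarized. The 3 depolarized libraries with the lowest Arc, at 87.3, 102 and 129 CPM, also have the 3 lowest levels of each of the other genes among depolarized libraries.

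Homer1, Plk2 and Plk3 had other neighbours than Arc. For Homer1 they were Slc35f5 (r 0.838 over the 20 libraries), Zfp825 (0.822) and Adamts7 (0.798). Without the 2 libraries farthest from the median of Homer1 these were 0.811, 0.711 and 0.748. Within the 10 depolarized libraries r was 0.799, 0.491 and 0.497, and -0.166, -0.136 and -0.255 without the 2 farthest of those, so that there the relation rested on those libraries. For Plk2 they were Chchd6 (0.828), Trim28 (0.785) and Mrto4 (0.778), and without the 2 farthest libraries 0.691, 0.598 and 0.599. For Plk3 they were Zfp410 (0.796), Mfsd2b (0.764) and Mob3a (0.745), and without the 2 farthest 0.663, 0.587 and 0.571. Between the members, r within the depolarized libraries was -0.0757 for Arc with Homer1 and 0.576 for Arc with Plk2, and within the resting ones 0.549 and -0.413. Without the 2 libraries farthest from the median of Arc these were 0.124 and 0.557 under KCl, and 0.639 and 0.0779 at rest. Both negative values thus rested on those libraries. The other pairs of members are not given here.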

How the data were processed

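RNA was measured in 24 libraries of mouse cortical neurons in 10 groups, taken from the sample labels. Per the submitters' processing notes, the authors used FastQC, cutadapt and kallisto; the annotation they used is not given in the sources used here. Per the file headers, the authors deposited per transcript an estimated count, TPM (estimated counts scaled by effective length to a common sum per library), a length and an effective length, and this last served only for length offsets. Of 142552 transcripts per table, 141429 (99.2%) matched GENCODE M21; the 1123 others, at most 0.467% of a library's counts, were left out. No 2 libraries shared more than 1.44% of their non-zero values.

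Estimated counts were summed per gene, rounded and tested by quasi-likelihood F tests in edgeR 4.0.16 (R 4.3.3, TMM, filterByExpr, two-sided, Benjamini-Hochberg over all features, called under 0.05). DIV7 (19822 genes, common biological coefficient of variation 6.44%, 2 residual degrees of freedom) and DIV18 (20940 genes, 14.6%, 12) were fitted separately, all DIV18 groups sharing one spread, and jointly (22459 genes, 13.5%, 14) to compare the ages. Transcripts were fitted the same way, and kallisto's uncertainty in splitting reads between forms did not enter. Rounding and fitting transcripts leaves forms that share most bases uncertain. Standard errors and 95% intervals came from the F statistic. The tests were tested on simulated counts. A test of transcript use within a gene made more false calls there than its threshold allows, and its calls are not used.

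The members and gene lists were chosen with earlier results of these data known. Genes named were the members, their transcripts, genes of the lists called in a KCl response (at DIV7 the 3 largest per list), and the 3 genes most correlated with each member over the 20 DIV18 libraries; exceptions are stated. Alternatives were other size factors, DESeq2 1.42.0, no low-count filter, length offsets, the replicate number as a block, only the groups compared, and leaving out each library. Promoter sequences are from RefSeq (GRCm38.p6), for Homer1, Plk2 and Plk3; Homer1 exon sequences are from the GENCODE M21 transcripts. The values of 1 gene of the lists are not reported here.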

Additional observations from a re-analysis of the deposited data

Results flagged for a closer look

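Homer1 responded differently in DIV7 and in NT cultures at DIV18. A test of the difference between the responses gave 1.55 on the log2 scale (adjusted p 1.43e-07, edgeR). All 4 depolarized libraries lay above the resting libraries of their own culture, as they did for 28.5% of all genes at DIV7 and 16.7% in NT. Within the gene, Homer1-204 gave 3.27 (adjusted p 7.05e-05, edgeR, all transcripts). Culture age, DMSO, the guide RNA and the kind of library differ together between these cultures and cannot be told apart.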

How the results depend on the processing

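Of 9 called results, none changed sign over 85 alternative values, and 21 of these values no longer passed; of 73 results not called, 8 of 791 values passed and 72 changed sign. The values that passed or changed sign follow, those with 1 library left out as ranges. The cause was not tested in any of them. Arc in NT passed with no low-count filter (1.73, adjusted p 4.06e-45). Arc with WT passed with no filter (2.20, adjusted p 1.56e-79), the replicate block (2.23, 0.0339), length offsets (2.21, 0.0448) and DESeq2 (2.21, 3.56e-04), and ran from 1.64 to 2.56 with 1 library left out, passing without the third depolarized WT library (2.56, 6.44e-04). Arc in KO with vector ran from 1.77 to 2.12. The difference in Arc response between DIV7 and NT passed with no filter (1.50, adjusted p 2.75e-16; 2.75e-16 to 0.654 over 14 alternatives).

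Correlations of deviations did not settle whether replicate numbers pair the libraries. Between a resting and a depolarized library with the same number, r was 0.020 (DIV7) and -0.047 (NT). It was 0.128, 0.069 and 0.238 in KO with vector and -0.029 and -0.044 in KO with WT. With different numbers in KO with vector it was 0.131, -0.230, -0.045, -0.024, -0.082 and -0.183. With the replicate block Homer1-204 at DIV7 gave 3.13 (adjusted p 0.0703), Homer1-205 7.08 (0.101) and Homer1-206 4.61 (0.101), all no longer called, and 1 transcript of all was called at DIV7 in place of 722, while called genes went from 3371 to 5857 (DIV7), 2 to 8 (NT), 15 to 16 (KO with vector) and 9 to 12 (KO with WT). The block reversed Arc in KO with vector against NT at rest (0.033), Homer1 in that contrast under KCl (-0.017), Plk3 in S586E against WT (-0.019) and, in the response of WT against vector, Homer1 (-0.0076) and Plk2 (0.034).

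With no filter, Homer1 in KO with vector against NT under KCl was -0.014. With length offsets it was -0.00056 there and 0.016 at rest, and in the response differences -0.017 (vector against NT) and -0.025 (WT against vector).

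With 1 library left out, signs changed within these ranges. Under KCl: Plk3 at DIV7 (-0.012 to 0.13) and in NT (-0.19 to 0.23), and Plk2 with WT (-0.059 to 0.18). KO with vector against NT: Arc (-0.32 to 0.028) and Homer1 (-0.15 to 0.050) at rest, Arc (-0.37 to 0.69), Homer1 (-0.042 to 0.037) and Plk3 (-0.23 to 0.19) under KCl, and Arc (-0.26 to 0.79), Homer1 (-0.045 to 0.15) and Plk2 (-0.075 to 0.026) in the response. WT against vector: Arc (-0.17 to 0.18), Homer1 (-0.034 to 0.11) and Plk2 (-0.069 to 0.17) at rest, Arc (-0.30 to 0.62), Plk2 (-0.027 to 0.085) and Plk3 (-0.028 to 0.19) under KCl, and Arc (-0.26 to 0.66), Homer1 (-0.082 to 0.059), Plk2 (-0.13 to 0.12) and Plk3 (-0.15 to 0.071) in the response. Against WT: Arc (-0.024 to 0.22) and Plk3 (-0.10 to 0.24) with S586E, and Arc (-0.41 to 0.51) with S586A. DIV7 response against NT: Plk3 (-0.16 to 0.26). Transcripts under KCl: at DIV7 Homer1-202 (-0.020 to 0.065), in NT Homer1-203 (-0.19 to 0.19), Homer1-204 (-0.37 to 0.34) and Homer1-206 (-0.53 to 2.44), Homer1-203 with vector (-0.034 to 0.13), and with WT Homer1-203 (-0.10 to 0.031) and Homer1-206 (-6.25 to 3.67). Homer1-204, Homer1-205 and Homer1-206 at DIV7 ran over 3.08 to 3.18, 6.86 to 7.38 and 4.40 to 4.85, and Homer1-205 in DIV7 against NT over 7.16 to 12.7, passing without the second resting NT library (12.7, adjusted p 0.0293).

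Counts of called genes moved by over 1.5 times as follows. DIV7 KCl response (3371): 2217 with DESeq2. NT (2): 192 with no filter, 15 with DESeq2, 1 with length offsets and 0 with only its groups. KO with vector (15): 515 and 52 with no filter and DESeq2. KO with WT (9): 196, 32 and, with only its groups, 5. KO with vector against NT at rest (1236): 2016 with no filter, 681 with length offsets and 225 with only its groups; under KCl (560): 1437, 279 and, with DESeq2, 933. WT against vector at rest (3): 604 with no filter, 178 with DESeq2 and 36 with the block; under KCl (2): 127 and 6. S586E (0): 782, 319 and 43, and 1 and 43 with length offsets and only its groups; S586A (0): 225, 19, 1 and 22. Response differences (0): 448 and 7 for vector against NT (1 with only its groups), and 116 and 1 for WT against vector. DIV7 response against NT (408): 657 with no filter and 245 with length offsets. Transcripts with no filter: 1190 at DIV7 (722), 2 in NT (1), 7 with WT (2); with the block 0 in NT. With 1 library left out, 1459 to 2630 genes were called at DIV7, 0 to 5 in NT, 5 to 10 in KO with vector, 1 to 12 with WT, 100 to 1031 and 37 to 241 in KO with vector against NT at rest and under KCl, 196 to 297 in the DIV7 response against NT, 2 to 23 in WT against vector at rest (23 without the third resting vector library) and 2 to 4 under KCl, and 0 to 1 for S586E, S586A and the response of vector against NT. In transcripts left-out libraries gave 0 to 4 calls at DIV7, 9 to 25 in NT, 2 to 15 in KO with vector, 0 to 10 with WT and 153 to 240 in the DIV7 response against NT (234).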
